A study of Mus musculus with 4 samples.

Results

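The NR4A nuclear receptors Nr4a1 (Nur77, NGFI-B), Nr4a2 (Nurr1) and Nr4a3 (NOR-1) were followed in the melanotropes of the intermediate pituitary lobe and the corticotropes of the anterior lobe. They were taken by gene symbol, which gave 3 genes and 4 transcripts of the 24063 genes and 33072 transcripts in the deposited table. Both groups were GFP-positive cells sorted by flow cytometry from mice of the POMC-EGFP line on strain C57B6, after the lobes had been separated by dissection, with no treatment listed. Each cell type had 2 libraries of total RNA depleted of ribosomal RNA, 4 in all. In this line EGFP is driven by Pomc regulatory sequence, so melanotropes and corticotropes were told apart by lobe and not by the reporter. The labels name neither age nor the number of animals behind a library, and they do not say that replicates came from separate sorts. The p-values therefore rest on the spread between these libraries, which may be technical, moderated by the spread of genes at similar levels.

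NR4A receptors are transcription factors of the nuclear receptor superfamily that act without a classical ligand, because bulky side chains fill the pocket where other receptors hold a hormone. Their activity is set largely by how much of them is made, and their genes are immediate early genes that are switched on within minutes by cyclic AMP, calcium and MAP kinase signals. In corticotropes, corticotropin releasing hormone (CRH) acts through its receptor Crhr1 and cyclic AMP to induce them, and they activate Pomc by binding as monomers to the NBRE sequence or as dimers to the Nur response element of its promoter. The glucocorticoid receptor Nr3c1 counteracts them there, as part of the negative feedback by glucocorticoids.

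The start regions of the 3 genes are shown because all of them hold repeats of TGACG, the core of the cyclic AMP response element to which CREB binds. Capitals mark TGACG on either strand (CGTCA where it lies on the other strand), and the matches do not overlap. The sequences are those of RefSeq on GRCm38.p6, 300 bases each, from 250 bases before to 50 after the annotated start of transcription, written 5′ to 3′ along the gene. Nr4a1 is at chr15:101266596-101266895 (plus strand), Nr4a2 at chr2:57123954-57124253 (minus strand) and Nr4a3 at chr4:48045055-48045354 (plus strand).
Nr4a1: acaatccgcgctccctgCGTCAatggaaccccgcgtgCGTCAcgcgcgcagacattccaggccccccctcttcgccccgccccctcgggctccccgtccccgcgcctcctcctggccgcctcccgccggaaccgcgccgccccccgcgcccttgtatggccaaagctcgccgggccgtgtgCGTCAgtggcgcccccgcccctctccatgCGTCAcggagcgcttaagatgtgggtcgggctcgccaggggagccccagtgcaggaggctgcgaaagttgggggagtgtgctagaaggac
Nr4a2: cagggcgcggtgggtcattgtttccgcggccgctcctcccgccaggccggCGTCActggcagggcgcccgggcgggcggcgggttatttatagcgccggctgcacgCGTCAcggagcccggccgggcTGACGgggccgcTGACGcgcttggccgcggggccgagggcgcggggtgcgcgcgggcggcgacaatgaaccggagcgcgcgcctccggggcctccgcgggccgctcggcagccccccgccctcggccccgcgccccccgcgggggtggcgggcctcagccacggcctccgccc
Nr4a3: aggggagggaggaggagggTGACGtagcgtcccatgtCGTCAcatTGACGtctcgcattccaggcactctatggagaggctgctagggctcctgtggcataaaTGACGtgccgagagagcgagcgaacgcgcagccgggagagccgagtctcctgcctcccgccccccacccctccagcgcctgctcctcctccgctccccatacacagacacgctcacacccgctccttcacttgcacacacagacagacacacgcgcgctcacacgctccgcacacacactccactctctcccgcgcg

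Each of the 3 windows held 4 TGACG matches, counted on both strands. Of 32851 promoter windows of that length in the RefSeq table, 20.8% held at least 1 match, 1.03% at least 3 and 0.231% at least 4. The NR4A windows were rich in G and C, with 72.3% in Nr4a1, 81.7% in Nr4a2 and 64.7% in Nr4a3, beside a median of 52.7% over all windows. In Nr4a1 the matches began 233, 213, 69 and 40 bases before the start of transcription, in Nr4a2 200, 144, 123 and 111 bases before it, and in Nr4a3 231, 213, 205 and 147 bases before it. The full palindrome TGACGTCA was in none of the 3 windows and in 1.79% of all windows, the receptors' own monomer site AAAGGTCA (NBRE) in none of the 3 and in 1.51%, and the CArG box bound by serum response factor in none of the 3 and in 1.63%, each searched on both strands. A match describes letters and shows no binding, and letters outside these windows were not searched.

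The deposited rows cover different parts of each gene. The Nr4a1 transcript (NM_010444, chromosome 15, 101266846 to 101274794 on mm10) starts at the window shown above and has 7 exons in GENCODE M21. Nr4a2 had 2 transcripts of 8 exons each, NM_013613 (chromosome 2, 57107226 to 57115038) and NM_001139509 (57107226 to 57124003). NM_001139509 starts at the window shown, while NM_013613, the longer row that stood for Nr4a2, starts downstream of it. They share most exons, so most reads entered both rows. For Nr4a3 a single row was listed (NM_015743, chromosome 4, 48051248 to 48083352, 6 exons), which starts downstream of the window shown. Its counted length of 1877 bases compares with 1881 coding bases and 4979 exon bases in GENCODE M21, so the row covered about the coding length. No other gene of GENCODE M21 overlapped the deposited spans of the 3 genes on either strand.

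All 3 receptors were higher in melanotropes than in corticotropes. Levels are FPKM (fragments per kilobase of transcript, scaled to the library total) rescaled between libraries by a trimmed mean, and changes are melanotrope over corticotrope on log2(FPKM + 1), a scale that understates changes of low genes. Tests are limma's moderated test, two-sided, with Benjamini-Hochberg adjustment over all 13048 genes with at least 1 FPKM in at least 2 libraries. At an adjusted p of 0.05, 17.5% of the genes tested were higher in melanotropes, 19.3% were lower and 36.8% changed in either direction, 4800 genes in all. That count was 3175 without melanotrope replicate 2 and 3202 without melanotrope replicate 1, and 9726 on the deposited scale, with 939 higher and 8787 lower (66.8% lower and 73.9% in either direction). In bulk libraries, more cells that express a gene and more RNA per cell cannot be told apart.

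Nr4a1, the founding member, was at 292 and 277 FPKM in the melanotrope libraries, against 187 and 155 FPKM in the corticotrope libraries. The lowest melanotrope value exceeded the highest corticotrope value, as was so for 33.6% of the genes tested. The means were 285 ± 11.1 FPKM in melanotropes and 171 ± 22.5 FPKM in corticotropes (SD, n = 2 each), a ratio of 1.67. The log2 fold change was 0.74 (SE 0.12, 95% interval 0.44 to 1.03, adjusted p = 0.00568, limma), higher than that of 93.5% of the genes tested.

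Nr4a2, known best for its role in dopaminergic neurons, was at 80.5 and 76.8 FPKM in the melanotrope libraries, against 34.5 and 23.8 FPKM in the corticotrope libraries. The groups did not overlap, and the corticotrope libraries were further apart than the melanotrope libraries. The means were 78.6 ± 2.61 FPKM in melanotropes and 29.2 ± 7.57 FPKM in corticotropes (SD, n = 2 each), a ratio of 2.69. The log2 fold change was 1.42 (SE 0.17, 95% interval 1.01 to 1.84, adjusted p = 0.00184, limma), higher than that of 98.1% of the genes tested. The shorter transcript row, NM_001139509, gave a log2 fold change of 1.43 when every transcript was fitted as a row of its own, and its level was 79.7 ± 2.76 FPKM in melanotropes and 29.7 ± 7.56 FPKM in corticotropes. As the rows share most exons, this is not a second measurement.

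Nr4a3, the least abundant member, was at 4.33 and 3.56 FPKM in the melanotrope libraries, against 1.72 and 1.05 FPKM in the corticotrope libraries. Again both melanotrope libraries were the higher. The means were 3.94 ± 0.540 FPKM in melanotropes and 1.38 ± 0.475 FPKM in corticotropes (SD, n = 2 each), a ratio of 2.85. The log2 fold change was 1.06 (SE 0.16, 95% interval 0.66 to 1.46, adjusted p = 0.00454, limma). As the gene is low, this value depended on the pseudocount, with 1.48 at a pseudocount of 0.1 and 0.49 at a pseudocount of 5. The gene passed the expression filter in all 4 libraries. Nr4a2 and Nr4a3 were both called and at least 2-fold higher on this scale, as were 3.99% of the genes tested.

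**Figure D1:**
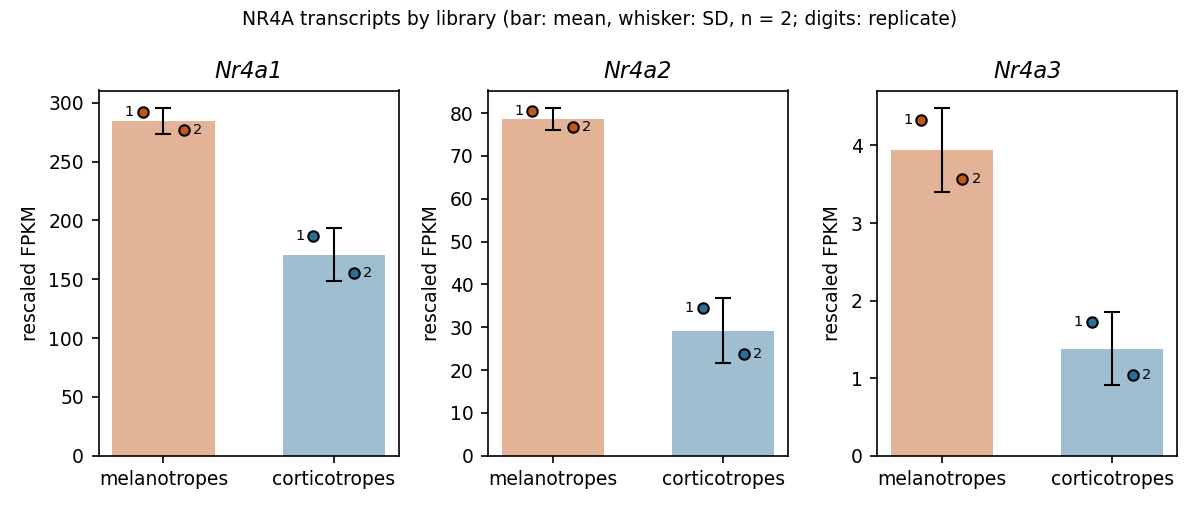
Rescaled FPKM of Nr4a1, Nr4a2 and Nr4a3 (1 panel each, with its own axis from 0) in the 2 melanotrope and 2 corticotrope libraries, as points with the replicate number; bars are means and whiskers SDs (n = 2). In each panel both melanotrope points lie above both corticotrope points, and replicate 1 lies above replicate 2 in each cell type.

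These calls depended on 2 choices. Without the expression filter, with 24063 genes tested, none of the 3 passed (limma adjusted p = 0.0698 for Nr4a1, 0.0599 for Nr4a2 and 0.0818 for Nr4a3), while 6.05% of all genes were called higher and 7.73% lower. On the deposited scale, where the columns have equal sums, the median gene stood at -0.42 on the log2 scale. There Nr4a1 was not called (log2 fold change 0.28, adjusted p = 0.0986), and Nr4a2 and Nr4a3 were called higher with 0.97 and 0.75, beside 7.14% of all genes. Over the 15 alternatives run, the direction was the same for each member, with adjusted p ranging over 1.75e-06 to 0.0986 for Nr4a1, 3.07e-07 to 0.0599 for Nr4a2 and 2.46e-06 to 0.0818 for Nr4a3.

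**Figure D2:**
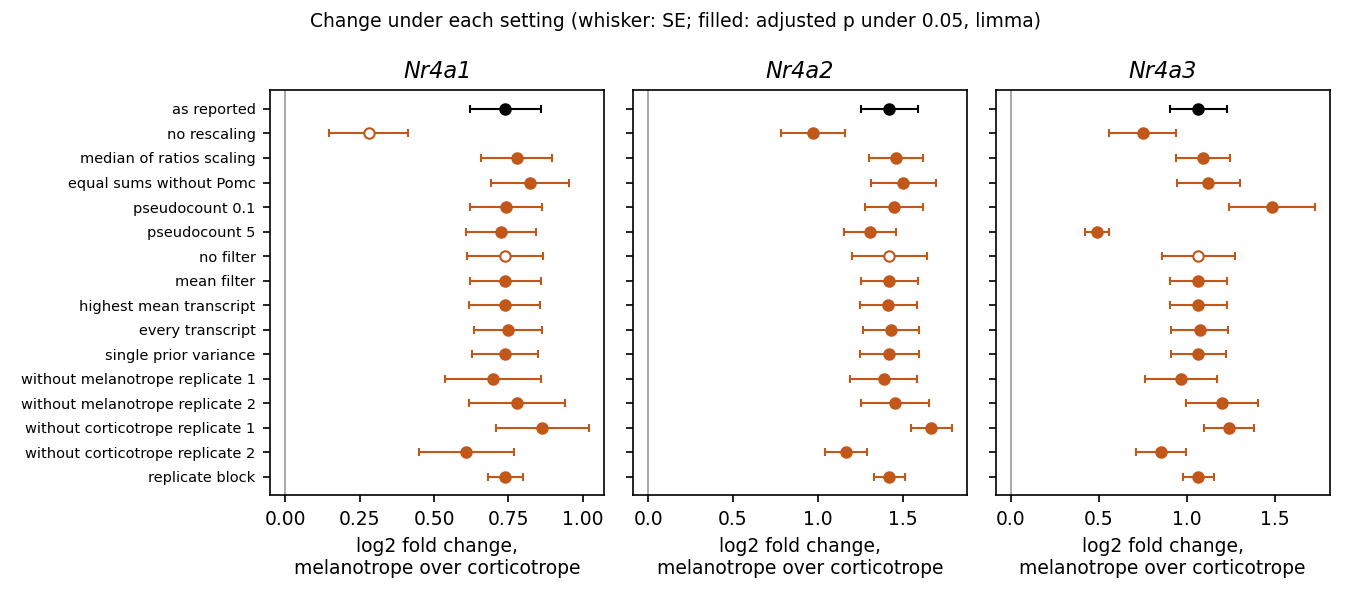
Log2 fold change, melanotrope over corticotrope, of Nr4a1, Nr4a2 and Nr4a3 (x axis) as reported and under the 15 alternatives (y axis); whiskers are standard errors and filled points have an adjusted p under 0.05 (limma). Each point lies right of 0; the open points are the fit without a filter for each gene and, for Nr4a1, the deposited scale.

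The authors' deposited table listed log2 fold changes of 0.76 for Nr4a1, 1.48 and 1.45 for the Nr4a2 transcripts and 1.40 for Nr4a3. Its false discovery rates, in the authors' deposited table, were 1.16e-08 for Nr4a1, 5.50e-09 and 8.53e-09 for Nr4a2 and 1 for Nr4a3, from a test that per the file headers was run on FPKM values. The reads behind Nr4a3 can be estimated from the spacing of low FPKM values, since FPKM times length falls on multiples of what 1 read is worth. That gave 1567 and 1293 reads in the melanotrope libraries, against 445 and 519 reads in the corticotrope libraries. Counting alone would then move an Nr4a3 value by 2.53% to 4.74%, and rounding to 2 decimals by at most 0.417%. Nr4a1 and Nr4a2 rested on 15070 to 139144 implied reads a library, where counting error was at most 0.815%. Reads without molecular identifiers are not independent molecules, so these figures cover counting error only.

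Per unit of length, the order was Nr4a1 over Nr4a2 over Nr4a3 in each of the 4 libraries, and the gaps between neighbours in this order exceeded the spread of replicates. Nr4a1 exceeded 99.4% and 99.3% of the genes tested in the melanotrope libraries, and 98.9% and 98.4% in the corticotrope libraries. Nr4a2 exceeded 96.4% and 95.9% of them in melanotropes, and 88.8% and 81.5% in corticotropes. Nr4a3 exceeded 30.1% and 25.3% in melanotropes, and 9.54% and 3.86% in corticotropes.

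The share of each gene in the family was taken per library, as a description, since an exact permutation test of 2 libraries against 2 cannot pass the threshold. Nr4a1 made up 77.5% of the summed NR4A FPKM in both melanotrope libraries, against 83.7% and 86.2% in the corticotrope libraries. Nr4a2 made up 21.3% and 21.5% in melanotropes, against 15.5% and 13.3% in corticotropes. Nr4a3 made up 1.15% and 0.998% in melanotropes, against 0.771% and 0.582% in corticotropes. The level of Nr4a1 was 3.63 and 3.61 times that of Nr4a2 in the melanotrope libraries, against 5.40 and 6.49 times in the corticotrope libraries. These ratios do not depend on scaling between libraries. With both Nr4a2 rows summed, which counts most of its reads in each, its mean share was 35.4% in melanotropes and 25.3% in corticotropes. The log2 ratio of Nr4a2 to Nr4a1 was higher in melanotropes by 0.71, with no overlap of the groups, and an exact permutation test gave p = 0.333, the smallest that 2 libraries against 2 allow. The log2 ratio of Nr4a3 to Nr4a2 differed by 0.10 with overlapping groups (exact permutation p = 0.667). The summed FPKM of the family was 377 and 357 in melanotropes, against 223 and 179.8 in corticotropes.

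Within each cell type the libraries differed in the same order for all 3 genes. In melanotropes, replicate 1 had 1.06 times the Nr4a1, 1.05 times the Nr4a2 and 1.21 times the Nr4a3 of replicate 2. In corticotropes the ratios were 1.21, 1.45 and 1.64. Of all genes tested, 12.1%, 2.97% and 1.40% had corticotrope ratios at least as high as those of Nr4a1, Nr4a2 and Nr4a3. The 2 corticotrope libraries thus differed more in these genes than in most. With corticotrope replicate 1 left out the log2 fold changes were 0.86, 1.67 and 1.24 for Nr4a1, Nr4a2 and Nr4a3, and with corticotrope replicate 2 left out they were 0.61, 1.17 and 0.85. All of these passed the threshold (limma), with the lone corticotrope library assumed to vary like the melanotropes.

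Cell dissociation is known to induce immediate early genes, so genes of the response to cell dissociation and heat shock were set beside the receptors. Of 21 such genes, all tested, 3 were higher and 6 lower in melanotropes, beside 17.5% and 19.3% of all genes. The median log2 fold change was -0.24, beside -0.02 over all genes tested. Dusp1, a phosphatase of MAP kinases, was at 202 ± 4.99 FPKM in melanotropes and 108 ± 4.79 FPKM in corticotropes and rose. Nfkbia, the inhibitor of NF-kappa B, was at 10.1 ± 1.10 FPKM in melanotropes and 31.6 ± 4.70 FPKM in corticotropes and fell. Zfp36, which destabilises mRNAs, and the chaperone Dnajb1 fell with log2 fold changes of -1.31 and -1.16, and neither passed without the expression filter. Atf3 and Hsp90aa1 were the other members called higher; neither call held on the deposited scale or without the filter, and that of Hsp90aa1 was lost with any library left out. The summed FPKM of the list was 4048 and 4721 in melanotropes, against 4866 and 5969 in corticotropes. Replicate 1 was above replicate 2 for 1 of the 21 genes in melanotropes and for 3 of 21 in corticotropes, beside 46.2% and 50.0% of all genes. Leaving out melanotrope replicate 1 gave 2 higher and 3 lower, leaving out corticotrope replicate 1 gave 2 higher and 10 lower, leaving out corticotrope replicate 2 gave 2 higher and 4 lower, and there were 1 higher and 1 lower without the filter and 1 higher and 15 lower on the deposited scale, where 66.8% of all genes were lower. Of all genes, 6.05% were higher and 7.73% lower without the filter, and fewer were called with any 1 library left out. The part of the dissociation response in the NR4A levels was not tested.

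Of 26 immediate early factors outside the NR4A family, all tested, 6 were higher and 7 lower in melanotropes, beside 17.5% and 19.3% of all genes. The median log2 fold change was -0.10. Fos, Fosb, Jun, Junb, Jund, Egr1, Ier2, Ier3, Atf3 and Btg2 also stood in the dissociation list, so the lists are not independent. The calls of Jun, Junb, Ier2 and Atf3 count in both. Counts so near the background say nothing particular of the class, and single members are described. Egr4, an EGR zinc finger factor, was at 24.1 and 30.1 FPKM in the melanotrope libraries, against 7.22 and 6.77 FPKM in the corticotrope libraries (log2 fold change 1.81, adjusted p = 2.41e-04, limma). Egr3 and Ier5 rose with log2 fold changes of 1.08 and 1.52. Egr2, of the same family as Egr4, was at 11.2 ± 1.72 FPKM in melanotropes and 38.3 ± 7.12 FPKM in corticotropes and fell (log2 fold change -1.68, adjusted p = 7.31e-04, limma). The Krüppel-like factors Klf6 and Klf10 fell with -1.32 and -0.85, calls that were lost without the expression filter. The most widely used marker of the class, Fos, was at 863 ± 80.0 FPKM in melanotropes and 966 ± 128 FPKM in corticotropes and did not pass (adjusted p = 0.487, limma). Egr1 was at 140.2 ± 1.29 FPKM in melanotropes and 165 ± 1.42 FPKM in corticotropes (adjusted p = 0.0666, limma). Jun, a partner of Fos in AP-1, fell, at 110.1 ± 11.4 FPKM in melanotropes and 165 ± 17.5 FPKM in corticotropes, a call lost without the filter, or with either melanotrope replicate 1 or corticotrope replicate 2 left out. The counts were 7 higher and 4 lower without melanotrope replicate 1, 4 higher and 1 lower without the filter (6.05% and 7.73% of all genes), while the deposited scale gave 5 higher and 14 lower (7.14% and 66.8%).

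Genes induced by cyclic AMP through CREB, the route by which CRH raises NR4A transcripts, were listed apart. Of 17 listed genes 14 were tested, and 7 were higher and 0 lower in melanotropes (limma; 8 higher and 0 lower at an unadjusted p under 0.05), beside 17.5% and 19.3% of all genes, with a median log2 fold change of 0.43. Gem, a small GTPase that restrains calcium channels, was at 77.9 ± 13.5 FPKM in melanotropes and 19.9 ± 0.846 FPKM in corticotropes (log2 fold change 1.91, adjusted p = 2.60e-04, limma). Sik1, a kinase that feeds back on CREB coactivators, was at 31.3 and 46.1 FPKM in the melanotrope libraries, against 8.38 and 8.68 FPKM in the corticotrope libraries (log2 fold change 2.03, adjusted p = 6.00e-04, limma). Bdnf, a neurotrophin, was at 7.42 ± 1.09 FPKM in melanotropes and 1.38 ± 0.0171 FPKM in corticotropes (log2 fold change 1.82). Crem, whose gene also makes the CREB repressor ICER, was at 36.1 ± 1.71 FPKM in melanotropes and 27.3 ± 6.62 FPKM in corticotropes and did not pass (adjusted p = 0.0967, limma). On the deposited scale 5 were higher and 5 lower, beside 7.14% and 66.8% of all genes, so the absence of lower calls did not hold there. Fos also stood in the immediate early and dissociation lists, Nfil3 in the immediate early list, Dusp1 in the dissociation list and Sik1 and Crem among the signalling genes.

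The receptors and enzymes upstream of the NR4A genes were taken next. Of 27 genes of CRH and cyclic AMP signalling 25 were tested, with 5 higher and 5 lower in melanotropes and a median log2 fold change of -0.08. These counts were near the background of 17.5% of all genes higher and 19.3% lower and say nothing particular of the list. Crhr1 was at 8.14 and 6.87 FPKM in the melanotrope libraries, against 128 and 139 FPKM in the corticotrope libraries. The vasopressin receptor Avpr1b and the adenylyl cyclase Adcy2 also fell, with log2 fold changes of -3.84 and -4.60. Avpr1b, Adcy2 and Adcy7, a further cyclase called lower, reached 1 FPKM in the corticotrope libraries alone. Their entry into the test thus rested on the group where they were high. Besides Sik1, Prkar1a, a regulatory subunit of protein kinase A, was at 282 ± 18.1 FPKM in melanotropes and 180.5 ± 10.5 FPKM in corticotropes and was called higher, and the adenylyl cyclase Adcy3 was at 4.77 ± 0.310 FPKM in melanotropes and 2.99 ± 0.214 FPKM in corticotropes. Both calls were lost without the filter and on the deposited scale, and that of Adcy3 also without melanotrope replicate 2. Leaving out corticotrope replicate 1 gave 4 higher and 2 lower, leaving out corticotrope replicate 2 gave 6 higher and 2 lower, leaving out melanotrope replicate 2 gave 3 higher and 5 lower, and there were 1 higher and 16 lower on the deposited scale, where 66.8% of all genes were lower. Without either corticotrope library 22 members were tested, since Avpr1b, Adcy2 and Adcy7 then missed the filter.

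Genes of calcium and MAP kinase signalling, the other inputs to these genes, were taken as a list too. Of 32 genes 29 were tested, and 7 were higher and 11 lower in melanotropes, beside 17.5% and 19.3% of all genes, with a median log2 fold change of -0.14. Without the filter 6.05% of all genes were higher and 7.73% lower, and fewer of all genes were called with any 1 library left out. Subunits of calmodulin kinase II differed in direction. Camk2a was at 6.69 ± 0.166 FPKM in melanotropes and 2.61 ± 0.160 FPKM in corticotropes and rose, while Camk2g, at 7.78 ± 0.546 FPKM in melanotropes and 19.0 ± 0.112 FPKM in corticotropes, Camk2d and Camk2b fell. Among calcium-responsive transcription factors, Mef2c was at 2.14 ± 0.0261 FPKM in melanotropes and 0.797 ± 0.00521 FPKM in corticotropes and rose (log2 fold change 0.80), as did Nfatc1 (0.75). Both reached 1 FPKM in the melanotrope libraries alone, so their entry into the test rested on the group where they were high. Likewise Camk4, called lower, reached 1 FPKM in the corticotrope libraries alone. Without either melanotrope library 27 members were tested, and neither Mef2c nor Nfatc1 was among them. The counts were 4 higher and 7 lower without melanotrope replicate 1, 4 higher and 9 lower without melanotrope replicate 2, 3 higher and 5 lower without the filter, and 4 higher and 20 lower on the deposited scale, where 66.8% of all genes were lower.

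**Figure D3:**
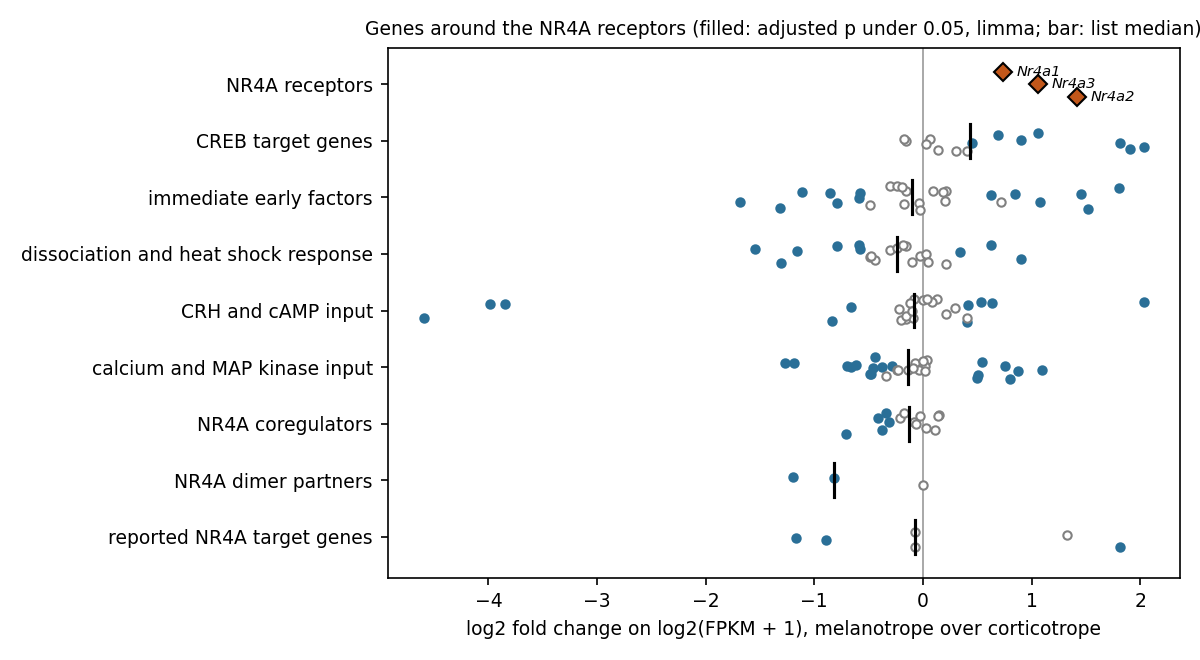
Log2 fold change, melanotrope over corticotrope (x axis), of the 3 NR4A genes (diamonds) and of the tested genes of 8 lists (rows, points); filled points have an adjusted p under 0.05 (limma) and black bars are list medians. The CREB target genes have filled points right of 0 and none left of it, and the immediate early factors have filled points on both sides.

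Partners that bind NR4A proteins were lower or not called. Nr4a1 and Nr4a2 can pair with retinoid X receptors, while Nr4a3 does not. Rxra was at 8.77 and 8.68 FPKM in the melanotrope libraries, against 16.5 and 15.7 FPKM in the corticotrope libraries, and fell (log2 fold change -0.82, adjusted p = 6.74e-04, limma). Rxrg was at 0.0114 and 0.0606 FPKM in the melanotrope libraries, against 1.51 and 1.24 FPKM in the corticotrope libraries, and fell, and without either corticotrope library or with a filter on the mean it was too low to be tested. Rxrb was at 14.6 ± 0.358 FPKM in melanotropes and 14.6 ± 0.801 FPKM in corticotropes (adjusted p = 0.988, limma; called lower on the deposited scale). By limma 0 of the 3 were higher and 2 lower, beside 17.5% and 19.3% of all genes tested. At an unadjusted p under 0.05, 0 were higher. A list of 3 genes is too short for these counts to say anything particular of the partners. The mean level of Nr4a1 in melanotropes, 285 FPKM, stood beside 8.72 FPKM of Rxra and 14.6 FPKM of Rxrb, and in corticotropes 171 FPKM stood beside 16.1 and 14.6 FPKM.

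Of 14 coregulators reported to act with NR4A or at Pomc, 0 were higher and 5 lower in melanotropes (limma, likewise 0 and 5 at an unadjusted p under 0.05), beside 17.5% and 19.3% of all genes, with a median log2 fold change of -0.13. The histone deacetylase Hdac2 was at 28.2 ± 0.0537 FPKM in melanotropes and 37.1 ± 0.684 FPKM in corticotropes (log2 fold change -0.38, adjusted p = 0.00843, limma). Ncoa1, a steroid receptor coactivator, fell with a log2 fold change of -0.71 (lost without the filter), and the retinoblastoma gene Rb1 with -0.41 (lost without either melanotrope library). The number lower was 2 without melanotrope replicate 1, 3 without melanotrope replicate 2, 3 without corticotrope replicate 1, 2 without the filter and 12 on the deposited scale, where 66.8% of all genes were lower. With equal sums of the transcripts other than Pomc 1 was higher and 3 lower, of 2852 genes higher and 1944 lower in all. Of all genes, 7.73% were lower without the filter, and fewer were called with any 1 library left out.

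Of 10 genes reported as NR4A targets, 6 were tested, with 1 higher and 2 lower in melanotropes, beside 17.5% and 19.3% of all genes, and a median log2 fold change of -0.07. Pomc, their target in these cells, was at 74997 and 82052 FPKM in the melanotrope libraries, against 30878 and 31499.6 FPKM in the corticotrope libraries, and missed the threshold (log2 fold change 1.33, SE 0.76, adjusted p = 0.226, limma). The groups did not overlap, and the SDs of its log2 values were 0.09 in melanotropes and 0.02 in corticotropes, so this SE comes from the variance trend at very high levels and not from the spread of its libraries. With a single prior variance for all genes the SE was 0.08 and Pomc was called higher (adjusted p = 2.68e-04, limma), and adjusted p ranged over 4.08e-09 to 1 across the alternatives. The missed threshold therefore does not show that Pomc was alike in both cell types. Bdnf, also a CREB target, rose. Ret, a receptor for glial-derived growth factors that Nr4a2 activates in dopaminergic neurons, was at 0.0413 ± 0.0102 FPKM in melanotropes and 1.34 ± 0.127 FPKM in corticotropes and fell, as did Spp1 (log2 fold change -0.89), whose call was lost without the filter or without melanotrope replicate 2. Ret reached 1 FPKM in the corticotrope libraries alone, so its entry into the test rested on the group where it was high. Without either corticotrope library, or with a filter on the mean, 5 members were tested and Ret was not among them.

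Among the 49 mouse nuclear receptor genes, all listed in the table, Nr4a1 was the most abundant in each of the 4 libraries. Nr4a2 was in second place in both melanotrope libraries, and in places 3 and 7 in the corticotrope libraries. Nr4a3 was in places 17 and 20 in melanotropes, against 28 and 32 in corticotropes. The glucocorticoid receptor Nr3c1, which counteracts NR4A factors at Pomc, was in place 24 in both melanotrope libraries with 2.37 and 2.42 FPKM, and in second place in both corticotrope libraries with 52.8 and 50.9 FPKM. The mean of Nr4a1 was thus 285 FPKM beside 2.40 FPKM of Nr3c1 in melanotropes, and 171 FPKM beside 51.8 FPKM of Nr3c1 in corticotropes. Of 34 nuclear receptor genes tested, 11 were higher and 12 lower in melanotropes, the NR4A genes included, beside 17.5% and 19.3% of all genes. Of those called, Nr2f1 and Pparg reached 1 FPKM in the melanotrope libraries alone, and Esrrg, Thrb, Nr5a1 and Rxrg in the corticotrope libraries alone. Their entry into the test rested on the group where they were high. The list was also added after the values were seen, so these counts only describe it.

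**Figure D4:**
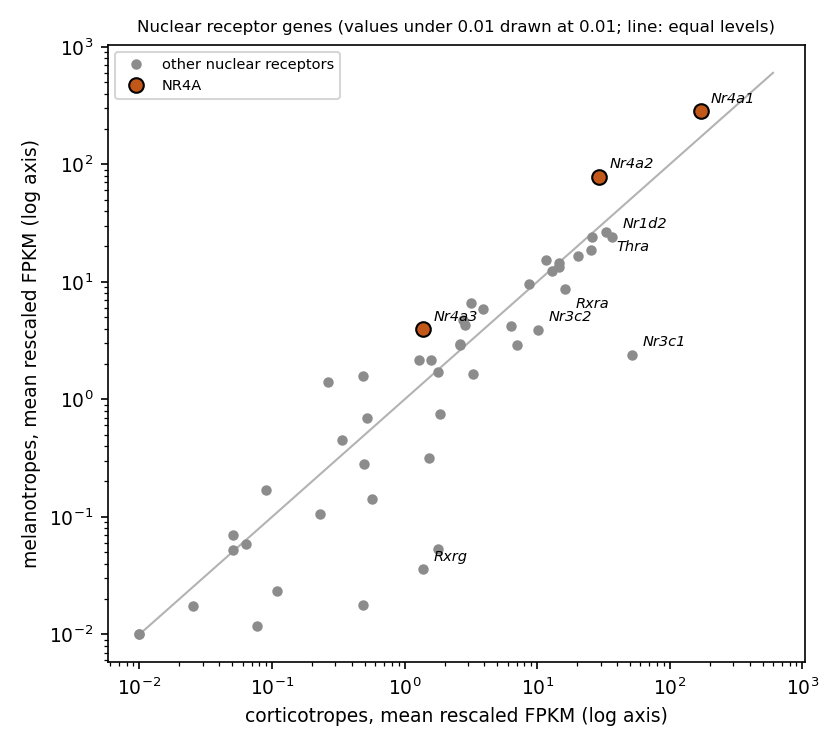
Mean rescaled FPKM of 49 nuclear receptor genes in melanotropes (y axis) and corticotropes (x axis), n = 2 libraries each, on log axes with an equality line; NR4A genes are orange. Nr4a1 and Nr4a2 lie at the upper right, above the line, and Nr3c1 lies far below it.

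Genes with the most similar profile were sought by the Euclidean distance between centred log2(FPKM + 1) values over the 4 libraries, as a description of 4 points. Nearest to Nr4a1 were the tubulin Tubb4b (distance 0.03), Mab21l1 (0.06) and the phosphate transporter Slc20a1 (0.07). Nearest to Nr4a2 were the lipoxygenase-family gene Aloxe3 (0.13), the metallothionein Mt3 (0.14) and 4930506M07Rik (0.17). Nearest to Nr4a3 were the secretory GTPase Rab27b (0.09), Lrrc7 (0.10) and Adam22 (0.10). The NR4A genes were not each other's nearest neighbours. Nr4a1 and Nr4a3 lay 0.36 apart, with 746 genes closer to Nr4a1 and 178 closer to Nr4a3. Nr4a2 and Nr4a3 lay 0.38 apart, with 82 genes closer to Nr4a2 and 222 closer to Nr4a3. Nr4a1 and Nr4a2 lay 0.70 apart, with 4195 genes closer to Nr4a1 and 533 closer to Nr4a2.

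The sorted populations carried the markers of their labels and, in part, of other cells. Of all genes tested, 17.5% were higher and 19.3% lower in melanotropes, the background for the counts below. Lists with few tested genes say little by count, and some markers reached 1 FPKM in a single cell type. The lists were chosen with earlier results of these data known, so the counts are no independent check of the sorting. The 4 melanotrope markers (Pax7, Pcsk2, Drd2, Oacyl) were higher in melanotropes, with a summed FPKM of 1494 and 1311 in melanotropes, against 222 and 166 in corticotropes. The 4 corticotrope markers (Crhr1, Avpr1b, Nr3c1, Neurod1) were lower, with sums of 10.9 and 9.71 in melanotropes, against 206 and 216 in corticotropes. All 12 markers of other hormone lineages were lower in melanotropes, with sums of 14.4 and 62.2 in melanotropes, against 5917 and 5676 in corticotropes. Of 8 immune markers 5 were tested and 3 were higher, with sums of 16.4 and 20.3 in melanotropes, against 6.58 and 9.03 in corticotropes. Of 6 endothelial markers 4 were tested and 3 were lower, with sums of 5.77 and 3.90 in melanotropes, against 12.8 and 19.1 in corticotropes. Of 8 posterior lobe and glia markers 3 were tested and 2 were higher, with sums of 17.0 and 19.3 in melanotropes, against 4.12 and 4.71 in corticotropes. No marker was at 0 in all libraries. NR4A genes are known to be expressed in immune, endothelial and other pituitary cells too, and the part of those cells in the NR4A values was not tested.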

How the data were processed

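Per-transcript FPKM was computed by the authors with analyzeRepeats of HOMER, counting RefSeq exons on mm10, per the file headers. Their log2 fold changes, p-values and false discovery rates were computed from that FPKM table with HOMER's getDiffExpression, per the file headers; the deposited fold ratio was not used. TopHat and edgeR are also named, with GRCm38 as a further build name, per the submitters' processing notes. Strand handling and whether mates counted separately were not given in the sources used here.

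Columns were divided by unweighted trimmed-mean factors (0.881 and 0.825 in melanotropes, 1.20 and 1.15 in corticotropes), trimming 30% of M and 5% of A among genes at 1 FPKM or more. The longest transcript stood for each gene. Genes with at least 1 FPKM in at least 2 libraries were fitted with limma 3.58.1 in R 4.3.3 on log2(FPKM + 1), with a variance trend and cell type as the sole term (2 residual and 3.76 prior degrees of freedom, threshold 0.05). The procedure was checked on simulated data with a small set of changed genes, balanced in direction. That check did not cover a shift of most genes, as seen on the deposited scale, and so does not bear on the choice of scaling. Low FPKM values implied 146091000 and 149779000 reads in melanotropes and 97578000 and 187277000 in corticotropes over the longest transcripts, with 99.6% to 100% of low values whole within 0.1 read. Replicate libraries correlated at 0.994 in melanotropes and 0.992 in corticotropes across genes.

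The members, gene lists and named genes were chosen with earlier results of these data known. Named were the members, up to 3 genes per direction of each list with the smallest adjusted p, 10 further genes in any case (Crhr1, Nr3c1, Pomc, Crem, Fos, Jun, Egr1, Rxra, Rxrb, Rxrg) and the 3 nearest profiles of each member. The list of 49 nuclear receptors was added after the values were seen. Alternatives covered scaling, the filter, the pseudocount, the transcript chosen, the prior variance, a replicate block and each library left out. Columns of per-sample values that matched no sample numbered 0.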

Additional observations from a re-analysis of the deposited data

How the results depend on the processing

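Of 15 alternatives for each NR4A gene, 13 kept the call for Nr4a1 and 14 each for Nr4a2 and Nr4a3. Lost were Nr4a1 with no rescaling (0.28) and all 3 with no filter (log2 fold changes 0.74, 1.42 and 1.06). With 1 library left out the values ranged over 0.61 to 0.86, 1.17 to 1.67 and 0.85 to 1.24. Genes past the threshold numbered 4800, 9726 with no rescaling and 7620 with every transcript as a row, where 19850 rows were tested, and 3175 to 3595 with 1 library left out. With no rescaling, called members were 17 of 25 for CRH and cyclic AMP input, 12 of 14 for coregulators and 16 of 21 for dissociation genes. On that scale 73.9% of all genes were called. With no filter they were 2 of 14 for coregulators, 8 of 32 for calcium and MAP kinase input, 2 of 21 for dissociation genes and 5 of 26 for immediate early factors. Without the filter 13.8% of all genes were called. A filter on the mean left 1 called partner. With 1 library left out, the counts ranged over 6 to 10 for CRH input, 2 to 4 for coregulators, 1 to 2 for partners, 11 to 17 for calcium input, 5 to 12 for dissociation genes, 11 to 14 for immediate early factors, 7 to 8 for CREB targets and 2 to 3 for NR4A targets. The shares were 77.3% and 21.6% for Nr4a1 and Nr4a2 in melanotropes with the highest mean transcript. Summed over all transcripts they were 63.7%, 35.4% and 0.881% for Nr4a1, Nr4a2 and Nr4a3 in melanotropes and 74.1% and 25.3% for Nr4a1 and Nr4a2 in corticotropes, since reads of Nr4a2 then count in both rows. The cause of the other shifts was not tested. With the replicate block, 16 dissociation genes (4 higher, 12 lower) and 21 immediate early factors (9 higher, 12 lower) were called, CREB targets had 8 higher and 1 lower and coregulators 1 higher and 6 lower, of 3415 genes higher and 3772 lower in all, and the NR4A genes kept their values with adjusted p of 1.75e-06, 3.07e-07 and 2.46e-06. The labels do not say that equal replicate numbers mark a shared day or animal, and deviations from the group means of same-numbered libraries correlated at 0.524 across genes. With 2 libraries a group, low genes and small changes are the least secure.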
